A study of Rattus norvegicus with 14 samples.

Results

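Testes taken from rat embryos at embryonic day 13 (E13) and kept for 3 days in organ culture were compared with testes taken fresh at embryonic day 16 (E16), the age they would have reached in the embryo. The members were the arrays titled as cultured E13 testis (n = 2) and as E16 testis (n = 2), which are 4 of the 14 arrays of the series. All 15866 probe sets other than the Affymetrix controls were compared, and none was chosen by its values. Fresh E13 testis (n = 2) is given beside both groups as the starting point, with fresh E14 testis and E16 ovary in places. Per the labels, each array carried RNA from 1 pool of 20 to 40 gonads of the same age and treatment, and the 2 pools of a group were independent. The cultured testes lay on filters over 0.4 ml of CMRL 1066 medium that held transferrin and insulin at 10 µg/ml each, glutamine at 350 µM, albumin at 0.01% and antibiotics, with 1 change of medium. No serum, gonadotropin or further agent is listed for the medium, no treatment is listed for the fresh gonads, and no source used here gives the rat strain or genotype.

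In the fetal testis, Sertoli cells form cords around the germ cells and secrete anti-Müllerian hormone, while fetal Leydig cells appear between the cords and make androgens from cholesterol. In the embryo this takes place with a blood supply and the adjacent mesonephros. In organ culture the gonad is cut off from the circulation and fed through the filter. The adrenal cortex arises beside the gonad from a common primordium and uses the same first enzymes of steroid synthesis, but adds 21- and 11β-hydroxylation to make corticosteroids.

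The labelled tissue was checked by its defining genes, with values given as deposited intensities, a linear scale on which each array had been brought to the same trimmed mean. Amh, the Sertoli cell hormone, stood at 739 and 737 in the cultured arrays, at 1093 and 814 in the E16 testis arrays and at 79.5 and 63.9 in fresh E13 testis. Sry, the switch gene of male sex determination, stood at 13.4 and 20.2 in cultured testis and at 28.2 and 18.5 at E16, against 163 and 185 in fresh E13 testis. Both genes thus had left their E13 level in culture, Amh upward and Sry downward. Xist, the RNA of the inactive X chromosome, stood at 151 in cultured replicate 1 but at 4.8 in cultured replicate 2 and at 3.3 and 1.5 in the E16 testis arrays, so that cultured replicate 1 went against its label in this gene. Of the other arrays used here, E14 testis replicate 1 (269, against 1.9 in replicate 2), E13 testis replicate 1 (36.2, against 1.9) and E16 ovary replicate 2 (12.8, against 152) also went against their labels in Xist. Cultured replicate 2 stood apart in other ways. Its ratio of 3′ to 5′ actin signal, a measure of RNA integrity, was 2.97, against 1.66, 1.61 and 1.62 in the other 3 arrays, and it held little globin signal (described with the blood genes). The chip labels put replicate 1 of both groups, with a fresh E14 testis array, in 1 set (A), and replicate 2 of both groups, with an E16 ovary array, in another (B).

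The replicate arrays differed among themselves to a similar extent as single cultured arrays did from single E16 testis arrays. Between the 2 cultured arrays, 657 probe sets (4.14%) differed at least 2-fold on the log2(intensity + 16) scale, and between the 2 E16 testis arrays 335 (2.11%). Within set A the cultured and the E16 testis array differed at least 2-fold in 284 probe sets, and within set B in 581. Across the sets they differed in 506 and 820. Single cultured and fresh E13 testis arrays differed in 757 to 1265. Between the group means, cultured testis differed at least 2-fold from fresh E16 testis in 152 probe sets, from E14 testis in 238, from E13 testis in 418 and from E16 ovary in 575. Of the 152, 75 (0.473%) were higher and 77 (0.485%) lower in culture; of the 418 against E13, 282 (1.78%) were higher and 136 (0.857%) lower, and E16 differed from E13 in 238 (1.5%) higher and 120 (0.756%) lower. These counts are a description, and those between means of 2 arrays are not on the same footing as those between single arrays, because averaging lowers them. The fresh E13 arrays came from other chip label sets than the cultured and E16 testis arrays, so age and chip label set cannot be told apart in the larger count.

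Against fresh E16 testis, 15 of 15866 probe sets (0.0945%) passed at an adjusted p under 0.05 (limma with Benjamini-Hochberg adjustment), 11 higher (0.0693%) and 4 lower (0.0252%) in culture. Those with 1 gene name were Cyp11b1, Cyp21a1, Akr1b7, Postn, Stmn2, Cxcr4, Clu and Serpina5 on the higher side and Cpa1, Nppc, Ybx2 and Npr3 on the lower side. At an unadjusted p under 0.05 there were 1059 probe sets (6.67%). The median log2 difference over all probe sets was 0.02. All 15 had the same direction in set A and in set B, which are the arrays that made the calls. The call count was 3 without cultured replicate 2 or E16 testis replicate 2, 6 without E16 testis replicate 1 and 32 (9 higher, 23 lower) without cultured replicate 1. Without any 1 of the other 10 arrays of the fit it lay between 5 and 9. The probe sets for Cyp11b1 and Nppc, and 1 probe set paired with several genes, passed in all 14 of these fits. Without the 4 arrays whose Xist level went against their label, cultured replicate 1 among them, 13 probe sets passed (3 higher, 10 lower), and 4 of these were among the 15: Cyp11b1 (adjusted p = 0.0273), Nppc (adjusted p = 0.0205), Postn (adjusted p = 0.035) and the same probe set paired with several genes (adjusted p = 0.00471). With the chip label set as a fixed block 2 passed, Cyp21a1 and that probe set (adjusted p = 0.0197 for both).

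**Figure D1:**
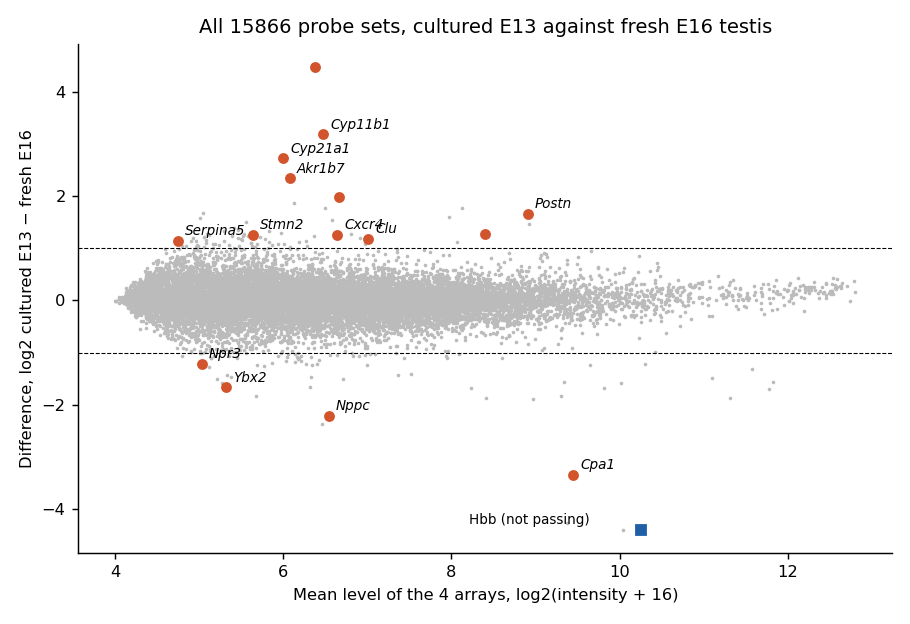
Difference between the group means (vertical axis, log2 cultured E13 minus fresh E16 testis) against the mean level of the 4 arrays (horizontal axis, log2(intensity + 16)) for all 15866 probe sets. Orange points are the 15 that passed, with gene names where the annotation gave 1, and dashed lines mark a 2-fold difference; the blue square is Hbb, whose large difference (log2 -4.39) did not pass.

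**Figure D2:**
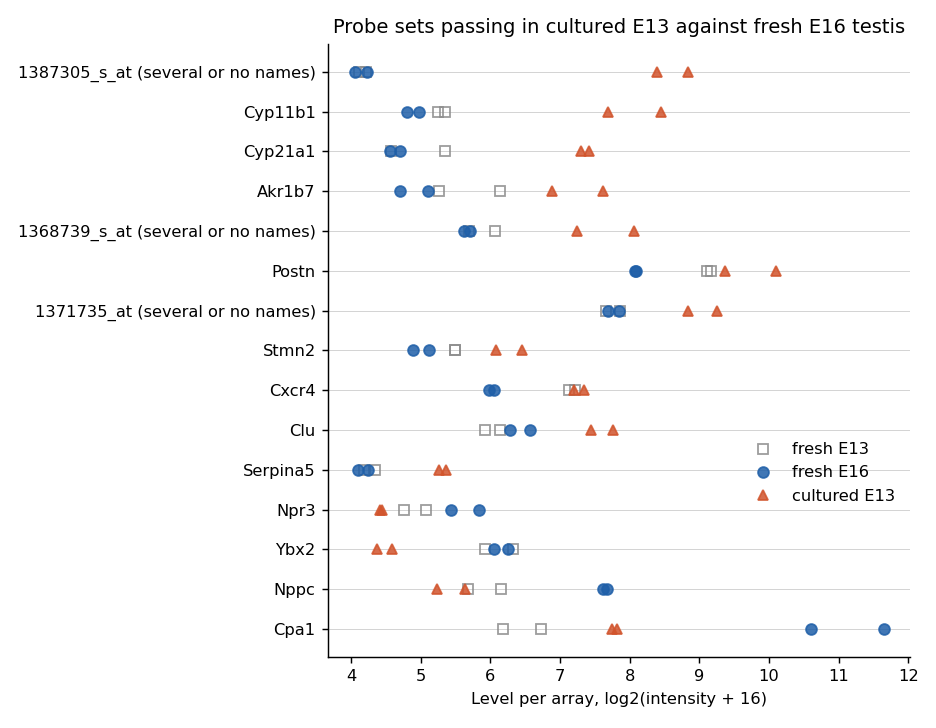
Level in each array (horizontal axis, log2(intensity + 16)) of the 15 probe sets that passed, for fresh E13 (open squares), fresh E16 (circles) and cultured E13 testis (triangles), 2 arrays each. In every row the triangles lie clear of the circles. In all rows but Cpa1 and Cxcr4, Cyp11b1 and Cyp21a1 among them, the triangles lie outside both fresh ages. For Cpa1 the cultured arrays lie between fresh E13 and fresh E16, and for Cxcr4 they overlap fresh E13.

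The largest passing difference was in a probe set paired with several genes, given at the end of this paragraph. Among those with 1 gene name, the largest on the higher side were in enzymes of corticosteroid synthesis. These enzymes were near the bottom of the scale in every fresh testis and well above it in culture. Cyp11b1 encodes 11β-hydroxylase, which completes the synthesis of corticosterone. Its probe set read 333 and 190 in the cultured arrays, 11.9 and 15.3 at E16, 13.5 and 9.8 at E14, and 24.8 and 21.8 at E13. Both cultured arrays were thus far above all 6 fresh testis arrays. The log2 difference from E16 was 3.18 ± 0.27 (SE), about 9.08-fold on this scale, with an adjusted p of 0.000851 by limma, and the difference from fresh E13 testis was 2.77 (adjusted p = 0.0008). Cyp11b1 has near-identical copies, so its signal could include theirs. Of the 3 probe sets that passed without a single name, 2 are paired with several genes and 1 with none. Which genes they measure was not resolved, and they are not counted here with the corticosteroid enzymes. The 2 paired with several genes read 443 and 318 against 0.6 and 2.8 at E16 (log2 4.47, adjusted p = 1.68e-06), and 251 and 135 against 36.3 and 33.1 (log2 1.99, adjusted p = 0.0447). The latter did not pass without 12 of the 14 arrays taken 1 at a time (adjusted p up to 0.324).

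Cyp21a1, the steroid 21-hydroxylase, read 155 and 142 in culture and 10.1 and 7.6 at E16. In fresh E13 testis it read 24.8 and 7.9, again below both cultured arrays. The difference from E16 was log2 2.73 ± 0.29 (SE; 95% interval 2.10 to 3.35, adjusted p = 0.00416 by limma), and it was 2.71 in set A and 2.74 in set B. It did not pass without cultured replicate 2 (adjusted p = 0.0589) or E16 testis replicate 2 (adjusted p = 0.065). Akr1b7, an aldo-keto reductase abundant in the rodent adrenal cortex, read 179 and 102 in culture and 10.1 and 18.4 at E16, with no overlap. Its log2 difference was 2.34 ± 0.35 (SE, adjusted p = 0.0447 by limma); fresh E13 testis, at 54.5 and 22.5, lay between the groups. With the replicate number as a block the adjusted p was 0.0533, and it did not pass without 12 of the 14 arrays taken 1 at a time (adjusted p up to 0.277).

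The 250 bases before the start of Cyp21a1 and Akr1b7 are shown because these were the passing genes whose promoter held the letters AAGGTCA, the form of the site that NR5A1 (steroidogenic factor 1) binds. They are taken from RefSeq, build GRCr8, as the plus strand read 5′ to 3′, at chr20:4028141-4028390 for Cyp21a1 and chr4:64043720-64043969 for Akr1b7. Capitals mark the match.
Cyp21a1: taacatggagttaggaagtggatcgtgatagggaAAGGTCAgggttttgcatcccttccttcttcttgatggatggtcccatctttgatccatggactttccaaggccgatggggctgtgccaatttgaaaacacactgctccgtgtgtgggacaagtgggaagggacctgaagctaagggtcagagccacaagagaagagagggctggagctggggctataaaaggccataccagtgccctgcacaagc
Akr1b7: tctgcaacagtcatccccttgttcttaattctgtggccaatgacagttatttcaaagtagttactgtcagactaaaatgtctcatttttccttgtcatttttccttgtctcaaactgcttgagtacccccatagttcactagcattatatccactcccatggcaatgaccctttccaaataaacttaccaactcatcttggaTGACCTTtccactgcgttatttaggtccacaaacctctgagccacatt
In Cyp21a1 the match is on the forward strand with its first base 216 bases before the start. In Akr1b7 it is on the reverse strand (TGACCTT), 48 bases before the start. Of the 12 passing genes 8 had a promoter in the table. Cyp11b1 was not among them, so its promoter was not searched. Of the 8, 2 held the letters on either strand, against 1336 of 33469 promoters (3.99%) of the same length. Of 9 Leydig cell genes searched in the same way (Star, Cyp11a1, Hsd3b1, Cyp17a1, Insl3, Fdx1, Scarb1, Lhcgr and Hsd17b3) 6 had a promoter in the table, and 0 of these held the letters. The core of the hypoxia response element, ACGTG, was searched in the same way and was in 0 of the 8, against 5547 promoters (16.6%). A match is a description of the letters and not a site of binding.

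Several androgen pathway genes of fetal Leydig cells were far above their E13 level both in culture and at E16. Of 19 measured genes of the steroidogenesis and Leydig cell list, the 2 that passed against E16 were Cyp11b1 and Cyp21a1, and the median log2 difference was -0.06, beside 0.02 over all probe sets. Against fresh E13 testis, where 1.39% of probe sets passed in cultured testis (1.06% higher, 0.334% lower) and 0.945% in E16 testis (0.706% higher, 0.24% lower), 8 of the 19 passed as higher in culture and 8 as higher at E16, and 0 as lower in either. The 8 in culture included the corticosteroid enzymes Cyp11b1 and Cyp21a1 (adjusted p = 0.0008 and 0.00231 by limma). Neither enzyme passed at E16 against E13 (adjusted p = 0.654 and 0.768). The comparisons with fresh E13 testis share its arrays, and each shares arrays with the comparison of culture and E16. Hsd3b1, which makes progesterone from pregnenolone, read 36.1 and 33.0 in fresh E13 testis, 2032 and 2543 in culture and 1432 and 2203 at E16. The cultured and E16 values overlapped, and their log2 difference was 0.35 with a 95% interval from -0.57 to 1.27 (adjusted p = 0.979 by limma). Star, which carries cholesterol into the mitochondrion, read 192 and 321 in culture, 183 and 365 at E16 and 45.0 and 30.3 at E13, with a log2 difference from E16 of -0.06 (95% interval -0.83 to 0.71). Hsd3b1 has related copies that may share its probes.

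Cyp11a1, the side-chain cleavage enzyme that starts steroid synthesis, read 488 and 408 in culture and 615 and 1051 at E16, against 39.5 and 41.1 in fresh E13 testis. Both cultured arrays were below both E16 arrays and above both E13 arrays. The log2 difference from E16 was -0.83 (95% interval -1.32 to -0.34, adjusted p = 0.382 by limma), and that from E13 was 3.04 (adjusted p = 0.000207). Cyp17a1, the 17α-hydroxylase needed for androgens, read 438 and 773 in culture, 1232 and 2566 at E16 and 15.5 and 2.3 at E13. Insl3, the Leydig cell peptide that guides testis descent, read 175 and 336 in culture, 540 and 1659 at E16 and 37.8 and 18.1 at E13. For both genes every cultured array was below every E16 array, but the differences did not pass (Cyp17a1 log2 -1.58, 95% interval -2.65 to -0.52, adjusted p = 0.512; Insl3 log2 -1.90, 95% interval -3.15 to -0.65, adjusted p = 0.5; limma). Over the whole list, 5 genes were higher in both cultured arrays than in both E16 arrays and 5 were lower, where 19.5% and 15.8% of all probe sets were.

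Fdx1, the ferredoxin that feeds electrons to the mitochondrial P450 enzymes, read 1394 and 1456 in culture and 766 and 1240 at E16 (log2 0.54, adjusted p = 0.72 by limma), from 216 and 217 at E13. Scarb1, a receptor for lipoprotein cholesterol, read 134 and 204 in culture and 164 and 342 at E16. Lhcgr, the receptor for luteinizing hormone, read 81.7 and 86.3 against 104 and 181, and Hsd17b3, which makes testosterone, 84.7 and 124 against 158 and 146. None of these 4 genes passed against E16. Akr1c14, a reductase of steroid hormones, read 79.0 and 34.3 in culture and 12.7 and 8.1 at E16 (log2 1.39, adjusted p = 0.263). The other members, Nr5a1, Por, Cyp19a1, Hsd17b7, Tspo, Pdgfra and Nr0b1, had log2 differences from -0.39 (Nr5a1) to 0.51 (Nr0b1). In whole gonads, fewer cells of a type and less RNA per cell cannot be told apart.

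**Figure D3:**
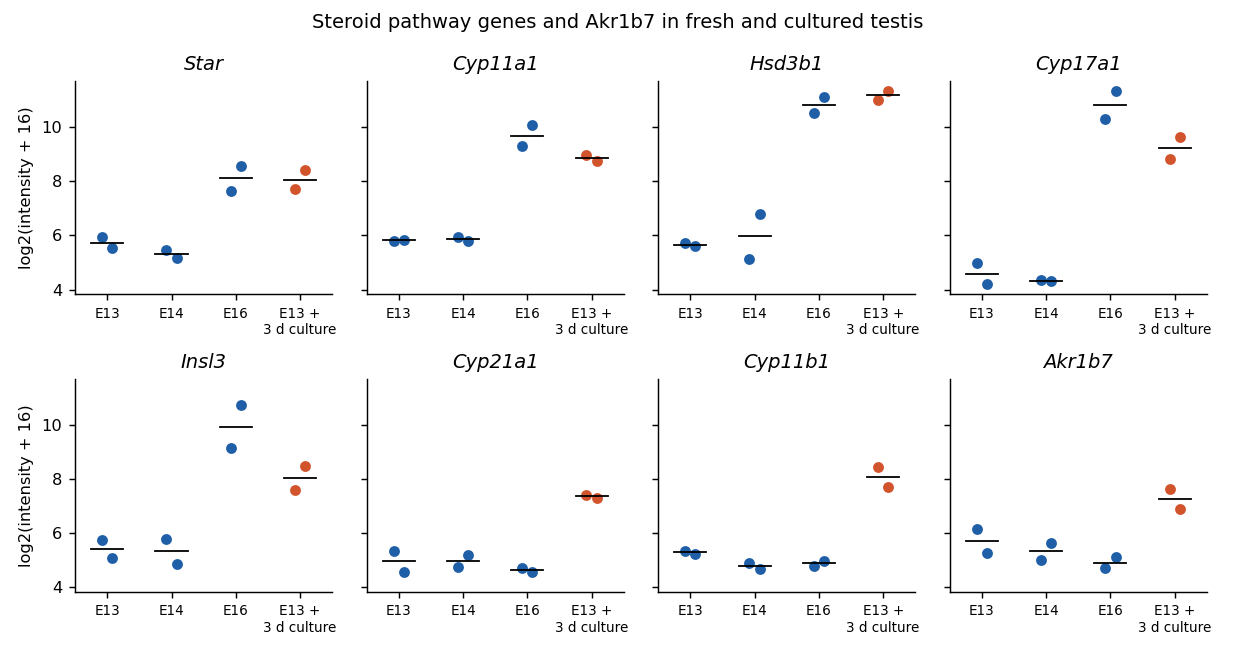
Levels (vertical axis, log2(intensity + 16)) of 8 genes in fresh testis at E13, E14 and E16 (blue) and in E13 testis after 3 days of culture (orange), each point 1 array and each bar the mean of 2. Star, Cyp11a1, Hsd3b1, Cyp17a1 and Insl3 were near the bottom until E14 and higher both at E16 and in culture, while Cyp21a1, Cyp11b1 and Akr1b7 were higher in both cultured arrays than in every fresh testis array drawn.

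On the lower side, Cpa1 differed most. It encodes carboxypeptidase A1, best known as a digestive enzyme of the pancreas. It read 199 and 210.0 in culture and 1532 and 3182 at E16, after 90.3 and 56.6 at E13 and 40.2 and 21.7 at E14. The cultured arrays were thus above every E13 and E14 array and far below the E16 arrays. The log2 difference from E16 was -3.34 ± 0.39 (SE; 95% interval -4.19 to -2.48, adjusted p = 0.00943 by limma), which makes E16 about 10.1-fold higher, whereas culture and E13 differed by log2 1.33 (adjusted p = 0.153). Cpa1 did not pass without cultured replicate 2 (adjusted p = 0.092) or E16 testis replicate 2 (adjusted p = 0.0741).

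A peptide hormone and its clearance receptor were both lower in culture. Nppc encodes C-type natriuretic peptide, which signals through the receptor Npr2 and is removed by Npr3. Nppc read 33.8 and 21.6 in culture and 181 and 188 at E16, with 55.1 and 35.4 at E13 and 36.2 and 31.9 at E14. Of the testis arrays, the 2 at E16 were high, and the E16 ovary arrays read 15.0 and 15.2. The log2 difference between culture and E16 was -2.21 ± 0.20 (SE, adjusted p = 0.00125 by limma). Npr3 read 5.7 and 5.3 in culture, 27.2 and 41.3 at E16 and 11.2 and 17.8 at E13. The log2 difference was -1.21 ± 0.19 (SE, adjusted p = 0.0447 by limma), a call that ended with any 1 of the 14 arrays left out (adjusted p from 0.068 to 0.382). The other genes of this system were named after their values were seen. Npr2 read 104 and 78.3 in culture and 97.7 and 106 at E16, and Npr1, the receptor for atrial peptide, 62.1 and 10.2 against 75.7 and 70.2; neither passed. Of the other peptides, Nppb read 11.2 and 34.3 in culture and 6.3 and 3.8 at E16, with the cultured arrays higher (log2 0.82, adjusted p = 0.62 by limma), and Nppa overlapped at 25.5 and 8 against 11.9 and 41.3.

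Ybx2, an mRNA-binding protein of germ cells, was lower in culture than at both fresh ages. It read 4.8 and 8.1 in culture, 50.5 and 60.2 at E16 and 64 and 44.8 at E13, so the cultured arrays lay below all 4. The log2 difference was -1.67 ± 0.24 (SE, adjusted p = 0.0447) from E16 and -1.64 (adjusted p = 0.00813) from E13, both by limma. Against E16 it did not pass without 10 of the 14 arrays taken 1 at a time (adjusted p up to 0.318). Of the germ cell list 6 genes were measured and 0 passed. Sycp3, a protein of the meiotic chromosome axis, read 47.2 and 32.5 in culture and 98.1 and 130 at E16 (log2 -1.22, adjusted p = 0.247), and Rhox5 81.2 and 54.1 against 158 and 156 (log2 -1.06, adjusted p = 0.412). Kit, a receptor of germ cells, overlapped at 52.1 and 15.0 against 62.4 and 36.2. The median log2 difference of the 6 was -0.57.

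Several Sertoli cell genes were above their E13 level both in culture and at E16. Of 26 measured genes 1 passed as higher, Clu, and 0 as lower, with a median log2 difference of 0.03. Against fresh E13 testis, 10 passed as higher and 1 as lower in culture, and 8 as higher and 1 as lower at E16. Over all probe sets the shares were 1.06% higher and 0.334% lower in culture, and 0.706% higher and 0.24% lower at E16. Amh, described above, differed from E16 by log2 -0.35 (95% interval -1.0 to 0.31) and from E13 by 3.11 (adjusted p = 0.0008 by limma). Aldh1a1, an enzyme of retinoic acid synthesis, read 763 and 1464 in culture, 550 and 824 at E16 and 89.5 and 77.3 at E13, with overlap between culture and E16. Inha, the inhibin α subunit, read 492 and 626 in culture, 285 and 415 at E16 and 149 and 115 at E13. Cldn11, a tight junction protein of the later blood-testis barrier, read 638 and 848 in culture, 345 and 483 at E16 and 150 and 119 at E13. Both Inha (log2 0.67, adjusted p = 0.594) and Cldn11 (log2 0.82, adjusted p = 0.5) had cultured arrays above both E16 arrays without passing. Fgf9, a signal that maintains the Sertoli cell fate, read 37.7 and 41.2 in culture and 74.5 and 59.7 at E16 (log2 -0.58, adjusted p = 0.632).

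Clu encodes clusterin, a secreted chaperone. Its brighter probe set read 159 and 200 in culture, 62.0 and 78.5 at E16 and 54.1 and 44.7 at E13, so that both cultured arrays were above all 4 fresh ones. The log2 difference from E16 was 1.18 ± 0.18 (SE, adjusted p = 0.0447 by limma). A dimmer probe set of the gene read 2.7 and 25 against 6.1 and 6.9 and did not pass (log2 0.30). Serpina5, an inhibitor of serine proteases, read 25.1 and 22.5 in culture, 1.2 and 2.9 at E16 and 4.2 and 2.2 at E13 (log2 1.14 ± 0.17 (SE), adjusted p = 0.0447). With 1 array left out in turn, Clu kept its call in 1 of 14 fits (adjusted p up to 0.342) and Serpina5 in 2 (up to 0.235).

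Postn and Cxcr4 were higher in culture than at E16, and the E16 arrays lay below the fresh E13 arrays too. Postn, the matrix protein periostin, read 646 and 1085 in culture, 255 and 253 at E16 and 538 and 559 at E13. It read 299 and 193 in fresh E14 testis and 1247 and 1518 in E16 ovary. Its log2 difference from E16 was 1.66 ± 0.25 (SE, adjusted p = 0.0447) and from E13 0.60 (adjusted p = 0.366), by limma. It passed in 1 of 14 fits with an array left out (adjusted p up to 0.319), and its adjusted p with the replicate block was 0.0533. Cxcr4, the receptor that guides migrating germ cells toward Cxcl12, had 3 probe sets. One read 146 and 131 in culture, 50.2 and 46.9 at E16 and 132 and 123 at E13 and passed (log2 1.26 ± 0.16 (SE), adjusted p = 0.0199). This probe set read 165 and 190.5 in E16 ovary. The other 2 had log2 differences of 1.27 (adjusted p = 0.0943) and, for the brightest, 1.09 (adjusted p = 0.195). The call ended without either cultured array, either E16 testis array or either E13 ovary array (adjusted p up to 0.19). Of 35 measured matrix genes Postn was the 1 that passed, and the list's median log2 difference was 0.08. Postn was also the 1 that passed of 17 measured pre-granulosa and ovary genes, a list with a median log2 difference of 0.03. Ogn, the proteoglycan osteoglycin, read 99.2 and 106 in culture and 183 and 310 at E16 (log2 -1.10, adjusted p = 0.293).

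Markers of adrenal medulla and nerve were measured because the adrenal and the sympathetic chain lie beside the gonad. The adrenal and chromaffin list also holds the corticosteroid enzymes Cyp11b1 and Cyp21a1, which enter its sums, counts and median. It summed to 1049 and 700 in the cultured arrays, 273 and 288 at E16 and 419 and 436 at E13. Of its 10 measured genes 2 passed, Cyp11b1 and Cyp21a1. Higher in both cultured arrays than in both E16 arrays were 8, where 19.5% of all probe sets were. The median log2 difference was 1.00, beside 0.02 over all probe sets. Chgb, a secretory granule protein, read 69.3 and 59.5 in culture and 14.5 and 23.2 at E16 (log2 1.21, adjusted p = 0.237), and Chga 26.0 and 10.3 against 1.5 and 2.0 (log2 0.91, adjusted p = 0.278). Th and Dbh, enzymes of catecholamine synthesis, read 111 and 87.6 against 39.7 and 32.3, and 72.0 and 15.2 against 13.3 and 4.7. In fresh E13 testis Chgb read 22.7 and 51.4, Th 57.3 and 63.8 and Dbh 10.3 and 6. Ddc, an enzyme of the same pathway, overlapped on its brightest probe set at 95.4 and 56.9 against 73.6 and 83.4 (log2 -0.07). Its dimmer probe set read 37.5 and 47 against 27.9 and 24.4 (log2 0.46) and did not pass. Th and Dbh are named as defining markers of chromaffin cells after their values were seen. Mc2r and Mrap, which mark the adrenal cortex, were not matched to a probe set and are not analysed here. The part of adrenal tissue in the corticosteroid enzyme signal was not tested.

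Nerve genes did not pass on the brightest probe set of each gene. Of 16 measured genes of the neuron and glia list, 15 had a difference above 0, 10 had cultured arrays above both E16 arrays and the median log2 difference was 0.43. Over all probe sets these were 53.2%, 19.5% and 0.02. Stmn2, a microtubule regulator of growing axons, passed on 1 of its 2 probe sets, with 71.8 and 51.5 in culture, 13.6 and 18.8 at E16 and 28.8 in both E13 arrays (log2 1.26, adjusted p = 0.0479 by limma). The brighter one had a log2 difference of 1.30 (adjusted p = 0.293). The call ended with any 1 array left out (adjusted p up to 0.296), and with the replicate block it was 0.057. Gap43, a growth cone protein, read 70.4 and 77.9 against 21.7 and 18.3 (log2 1.32, adjusted p = 0.293), and Snap25, a synaptic fusion protein, 44.5 and 21.6 against 11.2 and 4.0 (log2 1.03, adjusted p = 0.314).

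The summed red blood cell signal differed between the cultured arrays. The 13 measured red blood cell genes summed to 11838 in cultured replicate 1 and 1325 in cultured replicate 2, against 12825 and 14098 at E16. Hbb, the adult β-globin, read 2421 and 13 in culture, 4396 and 7053 at E16 and 51.3 and 115 in fresh E13 testis. Its log2 difference was -4.39, but the cultured arrays disagreed and it did not pass (95% interval -7.67 to -1.12, adjusted p = 0.594 by limma). Without cultured replicate 1 it was -7.59 (adjusted p = 0.00396), and without cultured replicate 2 it was -1.20. Ahsp, the chaperone of α-globin, read 74.3 and 6.5 against 131 and 121. Of the list 0 genes passed, and the median log2 difference was -0.80. Of 18 measured endothelial genes 0 passed, with a median of 0.00; Pecam1, an endothelial adhesion protein, read 48.0 and 43.6 against 67.4 and 56.5.

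**Figure D4:**
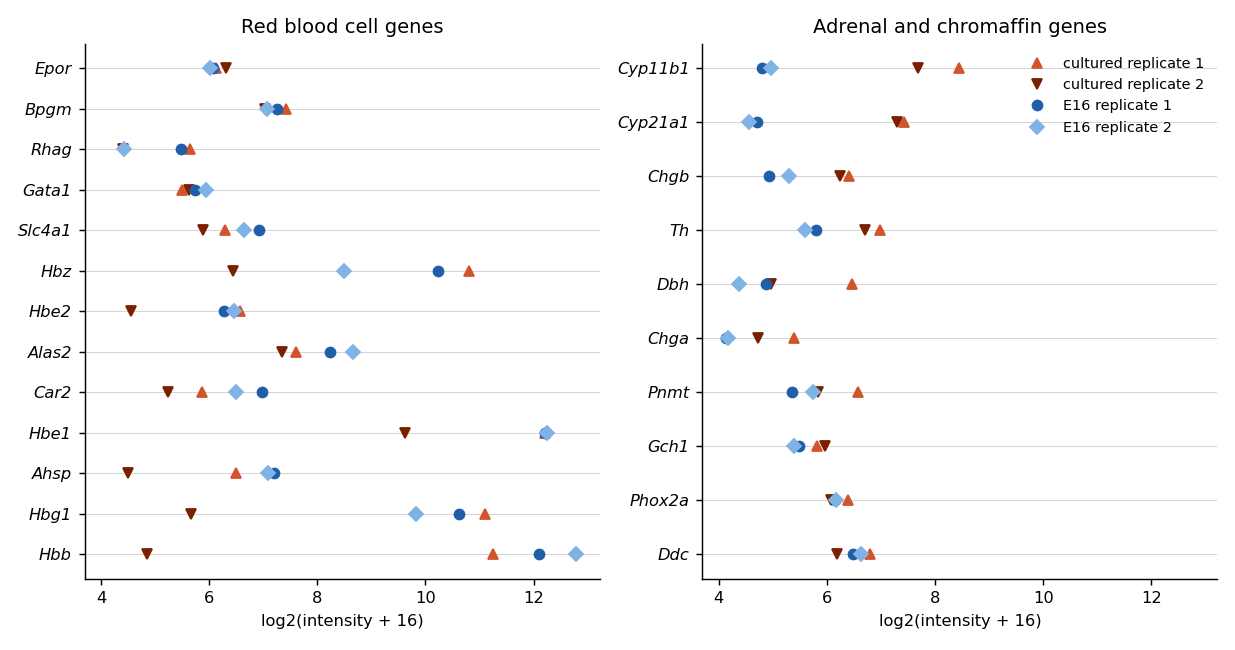
Level in each array (horizontal axis, log2(intensity + 16)) of the measured red blood cell genes (left) and adrenal and chromaffin genes (right) in the 2 cultured (triangles) and 2 E16 testis arrays (circles and diamonds). Cultured replicate 2 alone lies low for the globin genes such as Hbb, while both cultured arrays lie to the right of both E16 arrays for Cyp11b1, Cyp21a1, Chgb and Th.

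No member passed in the lists for inflammation, stress, cholesterol synthesis, hypoxia and glycolysis, smooth muscle, iron handling, cell cycle, macrophages or endothelium. In the inflammation and cytokine list, 20 of 25 differences were above 0 and the median was log2 0.43. Vcam1, an adhesion protein for white cells, read 184 and 149 in culture, 72.4 and 55.8 at E16 and 37.1 and 19.8 at E13 (log2 1.19, adjusted p = 0.162 by limma), and Cebpb, a transcription factor of the acute phase, 92.7 and 69.0 against 33.7 and 29.6 (log2 1.01, adjusted p = 0.263). In the stress and immediate early list, 22 of 27 were above 0 and the median was 0.33. Atf3, a stress-induced transcription factor, read 21.0 and 21.5 in culture and 4.2 and 5.7 at E16 (log2 0.83, adjusted p = 0.195). Over all probe sets 53.2% of differences were above 0.

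In the cholesterol and lipid synthesis list, 18 of 20 differences were above 0, with a median of 0.20. Idi1, an enzyme of isoprenoid synthesis, read 345 and 444 in culture and 240.1 and 248 at E16 (log2 0.65, adjusted p = 0.631), and Sqle, which makes squalene epoxide, 223 and 355 against 177 and 191 (log2 0.58, adjusted p = 0.652). In the hypoxia and glycolysis list, 20 of 27 were above 0, with a median of 0.20. Ldha, lactate dehydrogenase A, read 1231 and 1187 in culture, 731 and 944 at E16 and 2167 and 2766 at E13, so that both later groups lay below the start. The smooth muscle and peritubular list leaned the other way, with 4 of 18 differences above 0 and a median of -0.28. Acta2, smooth muscle actin, read 334 and 287 in culture, 470.0 and 543 at E16 and 215 and 191 at E13 (log2 -0.68, adjusted p = 0.704). Tfrc, the receptor that takes up transferrin, read 957 and 955 against 542 and 521 on its brighter probe set (log2 0.83, adjusted p = 0.269), while the other read 187 and 254 against 223 and 195 with overlap (log2 0.06).

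**Figure D5:**
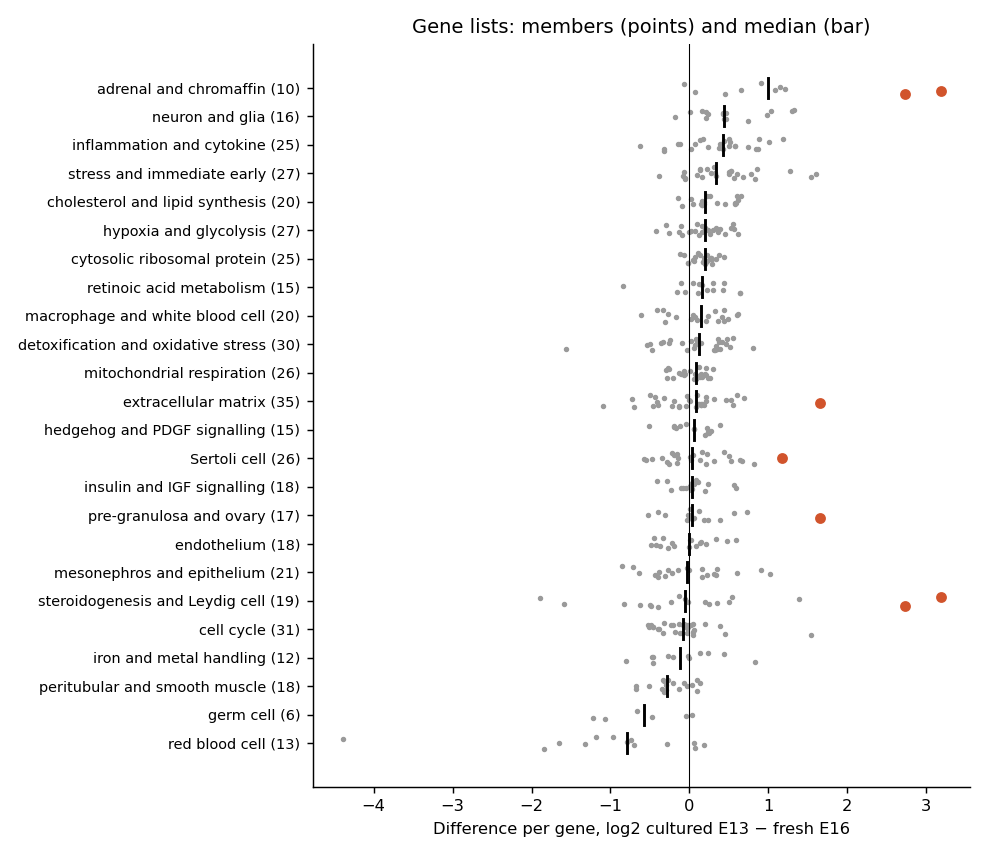
Log2 difference of each measured gene (points, horizontal axis, cultured E13 minus fresh E16 testis) in 24 gene lists, ordered by their median (bar), with the number of genes in parentheses; orange points passed. The adrenal and chromaffin list had the highest median (1.00) and the red blood cell list the lowest (-0.80).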

How the data were processed

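The deposited values were intensities of 15923 probe sets on 14 Affymetrix rat arrays, on a linear scale; the software that made them is not given in the sources used here, and the values show that each array was scaled to the same trimmed mean. The 57 control probe sets were left out. Names came from the platform annotation (12783 probe sets with 1 symbol, 312 with several, 2771 with none); 12748 were found in RefSeq's GRCr8 table.

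Values were analysed as log2(intensity + 16), which understates changes of dim genes. One linear model (limma 3.58.1, R 4.3.3) covered the 7 groups and all 14 arrays (7 residual and 4.16 prior degrees of freedom), with Benjamini-Hochberg adjustment over 15866 probe sets and a threshold of 0.05, and was tested on simulated data. Precision is limited by the number of arrays. The p-values measure the spread between arrays of the same group, estimated over all 7 groups. The arrays of a group lay in different chip label sets, so the spread between pools and that between sets cannot be told apart.

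Genes named were passing genes with 1 established symbol and no overlap between groups, up to 4 list members per direction by p, the label checks and the steroidogenesis list; others are marked. Where probe sets of a gene differ, values are from the brightest unless stated. The members and lists were chosen with earlier results of these data known.

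Chip label sets were read from the form of the chip labels. Replicate number 1 or 2 marks the same set in both groups, and same-numbered cultured and E16 arrays deviated together (r = 0.279), as did cultured and E13 arrays (r = 0.167) and E16 and E13 arrays (r = 0.203), although the E13 arrays share no chip label set with either group, and the pairing was tried as a replicate block. Alternatives were the offset, normalization, dim probe sets, arrays fitted, prior, blocks and left-out arrays.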

Additional observations from a re-analysis of the deposited data

How the results depend on the processing

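All 15 differences between culture and E16 kept their direction in every alternative run that fitted them, but their calls did not. The run limited to probe sets with a mean of at least 50 fitted 9 of the 15. These runs reused the arrays that made the calls. The count of 15 (11 higher, 4 lower) became 7 with an offset of 1, 9 with an offset of 64 and 9 with median centring. It was 1 when the 4 arrays were fitted alone, with or without the replicate block, 72 with chip label set as a random block and 2 with it as a fixed block. With the replicate block over all 14 arrays, which uses the pairing of the arrays, it was 14, of which 12 were shared, and Akr1b7, Postn and Stmn2 no longer passed. With 1 array left out in turn it ranged from 3 to 32; where an arm kept 1 array, that array was assumed to vary like the other groups. Without the 4 arrays whose Xist went against their label, a choice made after seeing the data, it was 13 (3 higher, 10 lower), of which 4 were shared.

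For culture against fresh E13 testis, the count of 221 became 106 with an offset of 1, 29 when the 4 arrays were fitted alone, 73 with the replicate block on those arrays, 5 without the 4 arrays with discordant Xist, and 49 to 211 with 1 array left out. For E16 against E13, 150 became 94, 29 and 6 with an offset of 1, the 4 arrays alone and without the discordant arrays, and 22 to 155 with 1 left out. Dim signals limit what can be seen: a value near the offset has little room to fall. Of 200 gene results, 0 reversed among those called, and 14 genes that did not pass did so in at least 1 alternative.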

Other observations

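Selenoproteins, which hold the amino acid selenocysteine and need selenium, were grouped after their values were seen; Gpx1, Gpx3, Gpx4 and Txnrd1 were also in the detoxification and oxidative stress list. Selenow read 293 and 86.3 in culture and 555 and 720.0 at E16 (log2 -1.87, adjusted p = 0.223 by limma). Gpx1, the cytosolic glutathione peroxidase, read 543 and 238 against 959 and 1267 (log2 -1.57, adjusted p = 0.223), and Selenoh 666 and 385 against 1030.2 and 1430 (log2 -1.23, adjusted p = 0.237). In fresh E13 testis Gpx1 read 952 and 1088, near its E16 level. For these 3 genes both cultured arrays were below both E16 arrays, and cultured replicate 2 was the lower. Gpx4, the lipid peroxidase, read 760 and 730 against 764 and 1044. Of 21 measured selenoprotein genes 0 passed, 6 were lower and 3 higher without overlap, and the median log2 difference was 0.07. Over all probe sets 15.8% were lower and 19.5% higher without overlap, and the median was 0.02.

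Other large differences that did not pass, also named after their values were seen, included Gpnmb, a glycoprotein of lysosome-rich cells, at 144 and 158 in culture, 32.7 and 32.9 at E16 and 59.7 and 60.9 at E13 (log2 1.78, adjusted p = 0.0943). Apoe, the lipid carrier, read 824 and 764 against 286 and 267 (log2 1.47, adjusted p = 0.293), and 1510 and 719 in E16 ovary. Ccng1, a p53 target, read 343 and 421 in culture, 148 and 187 at E16 and 146 and 102 at E13 (log2 1.12, adjusted p = 0.129), and it passed against E13 (log2 1.52, adjusted p = 0.0049). Mgp, matrix Gla protein, rose from 20.6 and 6.3 at E13 to 554 and 761 in culture and 422 and 742 at E16 (adjusted p = 0.00045 and 0.000508 against E13).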
